A study of Zea mays with 322 samples.

Results

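MIR390b (Cluster_180482) is the only member of the miR390 family among the 64 MIRNA loci whose expression was tabulated in maize leaves carrying altered copy numbers of chromosome segments, whole genomes or the B chromosome. It was taken by its row name, so 1 locus of 64 is described, in 322 libraries that fall into 81 groups. Small RNA was sequenced from leaves of 45-day plants. Distal segments came from B–A translocations, in which a chromosome arm is joined to the supernumerary B chromosome. Plants with 1, 3 or 4 copies of a segment (1D, 3D, 4D) were set against diploid controls with 2 copies (2D), and haploids with an extra copy (disomies, h2D) were set against haploids (h1D). Dp4, a region around the centromere of chromosome 4, was present in 3 or 4 copies against 2. Haploids, triploids and tetraploids (1X, 3X, 4X) each had their own diploids (2X), and plants with 1 B chromosome (1B) were set against plants with none (0B).

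Several features limit these groups as models of dosage alone. By the paper, some of the aneuploids carry B chromosome material that their controls lack. The 1B and 0B plants are W22 diploids and measure a B chromosome alone. The 2S_deletion line lacks part of 2S, and the 10L disomies carry another translocation than the diploid 10L lines. The triploids derive from Mo17 and the tetraploids from W22, and each is read only against its own diploids. A single diploid control serves 1S, 3S and 5L, and several haploid controls are shared as well, so comparisons with a common control are not independent of each other. In 7 pairs, plants of a group were not shown to differ beyond sampling noise over the loci, and 6 of these pairs were each counted as 1 sample. The chi-square over its degrees of freedom was 1.18 to 1.55 in these pairs, so they were not identical. The other pair, 6SA21 and 6SA22 of 6S 2D, shared 6SA22 with a joined pair, and 6SA21 was kept as a sample of its own. No locus of the tables marks a leaf cell type, so the tissue could not be checked against markers. A group held 2 to 6 samples, so the spread between plants was estimated from few. The p-values also draw on the spread of the other loci, since the test shares it across loci.

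In plants, miR390 is loaded into the Argonaute protein AGO7 and cuts or binds the noncoding TAS3 transcripts, which starts production of phased tasiRNAs. These tasiRNAs silence auxin response factors of the ARF3 type. In maize, loss of leafbladeless1, a gene of this tasiRNA pathway, disturbs the upper and lower sides of the leaf and the domain of miR166, which silences HD-ZIP III factors.

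The locus lies on chromosome 5 of the W22v2 assembly, at chr5:2743152-2743352, inside the segment varied in the 5S line. It is therefore a cis locus in 5S and a trans locus in all other lines. In the RefSeq annotation of another assembly its neighbours are the protein-coding genes LOC100272540 and LOC100278700, an snRNA gene and a pseudogene. RefSeq also lists MIR390a, on chromosome 1, which is not among the 64 loci and was not analysed here. No other locus of the 64 had the same mature sequence, so reads were not divided among listed copies. The mature sequence of MIR390a was not compared. Whether its reads fell on this locus, in 1S and 1L or elsewhere, was not tested. The mature sequence is shown with bases 2 to 8 in capitals. The predicted target site on a gene of chromosome 2 follows, with the unpaired base in capitals.
MIR390b mature: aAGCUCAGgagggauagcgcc
Zm00001d002835 site: ggcAcuaucccuccugagcuu
The miRNA and the site have 21 bases each, of which 20 pair and 1 does not, opposite position 18 counted from the miRNA's 5′ end. The site is a prediction, and no transcript level was measured here.

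Values are raw counts per locus and RPM, the reads of a locus scaled to the mapped reads of its library. Over the 318 libraries analysed, MIR390b had 25 to 1061 counts (median 187) and 22.3 to 436 RPM (median 103.3). By median RPM it ranked 8 of the 64 loci. Libraries had 670906 to 3892830 mapped reads, of which 1.49% to 8.47% fell on the 64 loci. Over the 81 group means of log2(RPM + 1), MIR390b had a Spearman rho of 0.37 and a Pearson r of 0.34 with mapped reads, and 0.02 and 0.003 with the share of reads on the loci. These are descriptions over groups that share sequencing runs. Differences were tested with edgeR's quasi-likelihood test with trimmed mean (TMM) scaling, on loci with a mean of at least 0.5 RPM. A locus is called where the FDR is under 0.05. Fold changes are log2 of the first group named over the second, with the standard error (SE).

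Group means ran from 42.1 RPM (5S 1D) to 338 RPM (1S 3D), an 8.03-fold span. Means over 200 RPM were found in 5 groups, namely 1S 3D, 3S 1D, the 2D control shared by 1S, 3S and 5L, and Dp4 at 3D and at 4D. Another 9 groups had means under 60 RPM. When the 81 groups were ordered by their means, none of the 80 steps between neighbours exceeded the larger of the 2 SDs. Sorting itself makes such steps small, so they do not show whether groups differ.

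MIR390b passed the test in 10 of 60 comparisons, being higher in 6 and lower in 4. The unadjusted p of the edgeR test was under 0.05 in 17, a count given without the share of all locus tests at that limit. It was called in 4 of 14 monosomies (2 higher, 2 lower), where 14.1% of all locus tests were called. In trisomies it was called in 3 of 15 (1 higher, 2 lower) against 5.12% of all tests. In disomies it was called in 2 of 17 (both higher) against 16.4%, and in distal tetrasomies in 1 of 3 against 8.13%. When libraries were scaled to mapped reads instead, the disomy count became 6 (4 higher, 2 lower), where 20.4% of all tests were called.

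**Figure D1:**
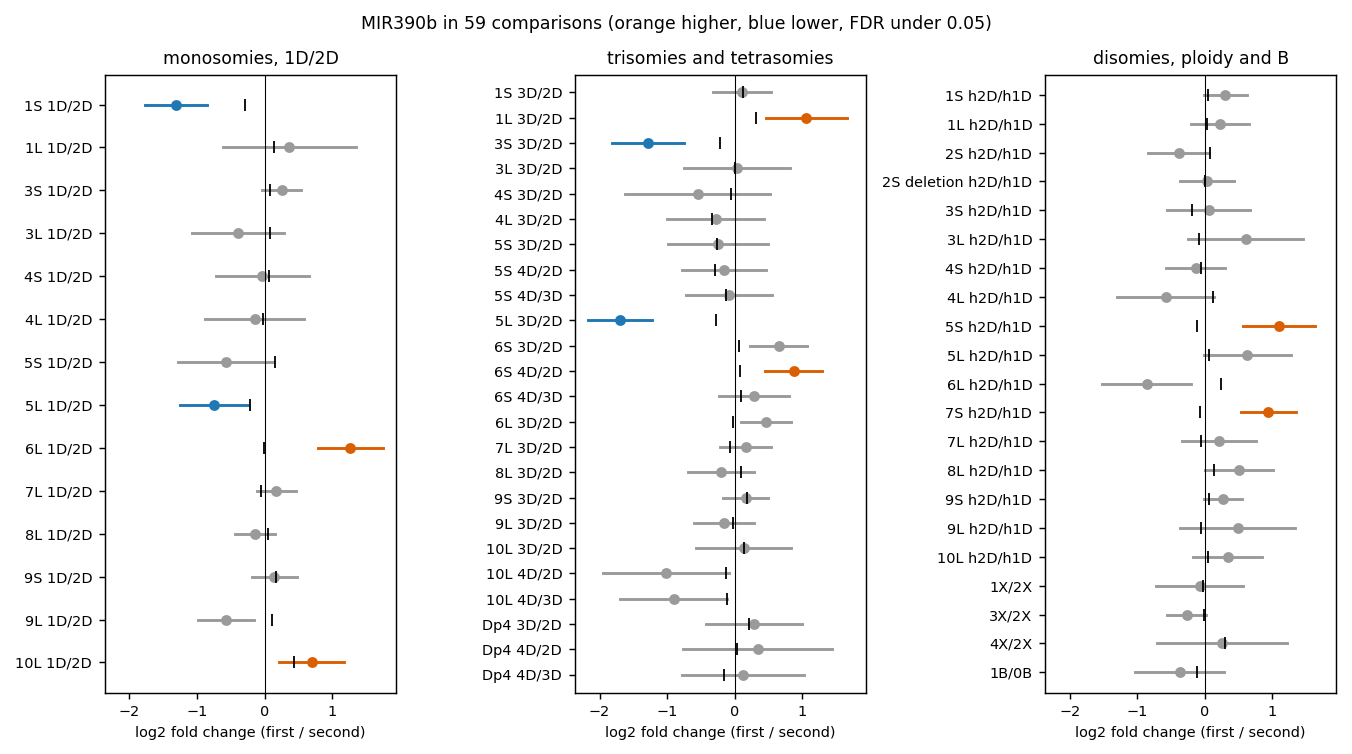
MIR390b in 59 comparisons. Points are log2 fold changes (first group over second) with 95% intervals, orange where called higher and blue where called lower (FDR under 0.05), and black ticks mark the median of all tested loci. The 10 coloured points lie on both sides of 0.

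In the haploid background an added 5S segment, which carries MIR390b itself, went with more of the miRNA. The 5S h2D plants had 107, 123, 166 and 218 RPM, against 35.7, 58.5, 59.5 and 74.1 RPM in h1D plants. Every disomic plant was above every haploid. In whole leaves, fewer cells that make a miRNA and less of it per cell cannot be told apart. The means were 153 ± 49.5 and 56.9 ± 15.9 RPM (SD, n = 4 each), a log2 fold change of 1.10 (SE 0.27, FDR 0.00155). Of the loci tested, 23.3% were called in this comparison. Without plant 5Sch7, the highest disomic, the log2 fold change was 0.97 and the FDR 0.0541. The median of all tested loci was -0.11 in the same comparison.

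The diploid 5S series gave no call for MIR390b. The 1D plants had 27.8, 40.2 and 58.3 RPM, the 2D controls 26.8, 35.1, 83.1 and 157 RPM, the 3D plants 57.4, 71.4 and 134 RPM, and the 4D plants 73.1, 94.9, 100.6 and 108 RPM. The 3D sample at 71.4 RPM joins plants 5SCS24 and 5SCS25, which had 49.4 and 93.4 RPM. The controls spanned the whole range of the series and overlapped all other groups. The means were 42.1 ± 15.3 (n = 3), 75.5 ± 59.7 (n = 4), 87.4 ± 40.5 (n = 3) and 94.1 ± 14.98 RPM (n = 4) for 1 to 4 copies.

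In 5S 1D/2D the log2 fold change was -0.58 (SE 0.36, FDR 0.624), where 0.0% of the loci were called. In 5S 3D/2D it was -0.25 (SE 0.38, FDR 0.905), with 2.33% called, and in 5S 4D/2D it was -0.16 (SE 0.32, FDR 0.806), with 12.2% called. The signs of these 2 values flip with scaling to mapped reads, to 0.20 and 0.32. Between 4D and 3D the log2 fold change was -0.08 (SE 0.31, FDR 0.886), with 7.32% called, and 0.13 with mapped reads.

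A slope over the 4 dosages was 0.36 log2 units for each doubling of copies (SE 0.20, FDR 0.176), in a test that called 27.9% of loci. With mapped reads it was 0.56 (SE 0.19, FDR 0.0206), in a test that called 18.6%. The slope was thus called on the second scale and not on the first. Without plant 5SCS42 of the 3D group the TMM slope was 0.075 (FDR 0.790), and without any other plant it was 0.26 to 0.46. The 3D plants had a log2 fold change of 1.08 over the 1D plants (SE 0.38, FDR 0.117), and without plant 5SCS18 of the 1D group it was 1.51 (FDR 0.00621).

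**Figure D2:**
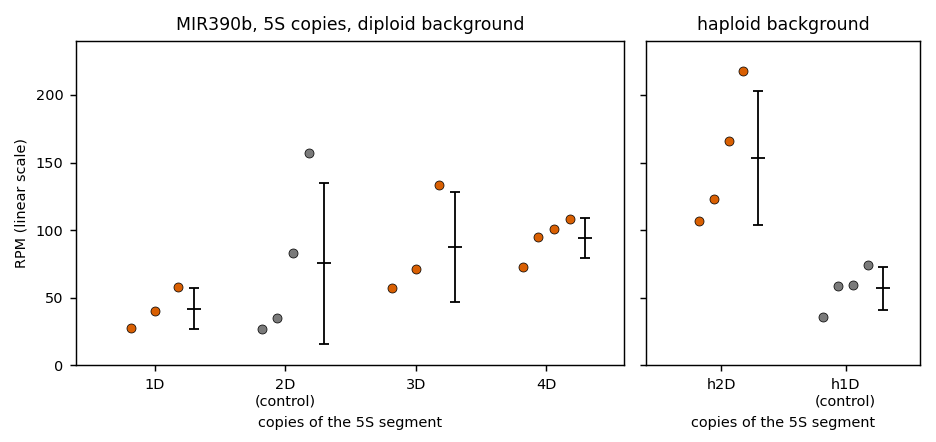
MIR390b in RPM (linear scale from 0) in each sample of the 5S line, by copies of the segment, with the mean and SD beside the points. The h2D plants (107 to 218 RPM) lie above the h1D plants (35.7 to 74.1 RPM), while the 2D controls spread from 26.8 to 157 RPM.

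Of the other loci of the 5S segment, 3 of 4 could be tested, and MIR171f was below the expression limit. MIR167c, which silences auxin response factors, was higher in 5S h2D (124 RPM against 14.04 RPM in h1D, log2 fold change 2.86, SE 0.36, FDR 2.68e-08) and in 5S 4D (123 RPM against 15.8 RPM in 2D, log2 fold change 2.47, SE 0.38). MIR167c was also called higher in 1B than in 0B plants. The paper set it aside, since effects of the A segments and of B material on it were hard to separate. MIR171m, of a family that silences GRAS factors and with a mature sequence held by another locus too, was higher in h2D (88.9 RPM against 28.2 RPM in h1D, log2 fold change 1.41, SE 0.28, FDR 1.24e-04). MIR166f shares its mature sequence with other MIR166 loci, which leaves its counts uncertain, and was not called in any 5S group comparison. The slope over the 4 dosages was called in all 3, at 1.24 for MIR167c (FDR 7.91e-08), 0.66 for MIR171m (FDR 0.0119) and 0.34 for MIR166f (FDR 0.00480). That test called 27.9% of all loci. Of the MIR166 loci outside the segment, MIR166g had a called slope of 0.33 (FDR 0.0121), and MIR166i was not called (0.20, FDR 0.322). The median of the 3 loci of the segment was 1.41 in h2D/h1D and that of all loci -0.11.

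The 5S effect was then set against the mean effect of the other lines. In h2D/h1D it was greater by 0.99 log2 units (SE 0.35, FDR 0.0325), with 19.1% of loci called. In 1D/2D the difference was -0.67 (SE 0.41, FDR 0.540), with 4.26% called. In 3D/2D it was 0.33 (SE 0.40, FDR 1.00), with 0.0% called.

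The largest changes in the monosomies and trisomies came from lines of 1 sequencing experiment. The 1S 1D plants had 99.5, 105.6, 117 and 140 RPM, against 213, 268, 279 and 299 RPM in the 2D control shared with 3S and 5L. No plant of 1S 1D reached the lowest control, and the log2 fold change was -1.31 (SE 0.21, FDR 3.79e-04), where 44.7% of loci were called. The 1S 3D plants had 235, 340, 341 and 436 RPM and overlapped that control (log2 fold change 0.11, SE 0.21).

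The 5L 1D plants had 76.6, 89.4, 183 and 188 RPM, all below the same control (log2 fold change -0.75, SE 0.24, FDR 0.0341, 21.1% of loci called). The call was lost without 5Lb23 (-0.57, FDR 0.112), without control 1Sb16 (-0.70, FDR 0.0904) and without control 1Sb26 (-0.70, FDR 0.123). The 5L 3D plants had 60.1, 70.7, 74.1 and 81.5 RPM, again all below it (log2 fold change -1.695, SE 0.23, FDR 2.89e-05, 11.6% called). MIR390b was thus lower at both 1 and 3 copies of 5L than in the shared control.

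The 3S line differed between its dosages. The 3S 1D plants had 248, 254, 274 and 304 RPM and overlapped the control (log2 fold change 0.26, SE 0.14, FDR 0.284). The 3S 3D plants had 42.4, 67.4, 79.9 and 101.8 RPM, all below it (log2 fold change -1.28, SE 0.26, FDR 3.71e-04, 17.5% called).

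In 6L, which had its own diploid control, the direction was the other way. The 6L 1D plants had 126, 149, 214 and 234 RPM, against 61.4, 61.5, 76.8 and 83.4 RPM in 6L 2D. All monosomic plants were above all controls, with a log2 fold change of 1.27 (SE 0.23, FDR 2.04e-04, 35.7% called). The 6L 3D plants had 51.2, 73.5, 87.1 and 101.7 RPM (log2 fold change 0.46, SE 0.19, FDR 0.0958).

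These 8 values rest on which diploid control was used. The shared 1S, 3S and 5L control averaged 265 ± 36.9 RPM and the 6L control 70.8 ± 11.1 RPM (SD, n = 4 each), although both held 2 copies of everything and came from the same sequencing experiment. Their log2 difference was 2.08 (SE 0.26, FDR 1.20e-12), and 61.4% of loci were called between them. In the shared control 3.12% to 3.59% of mapped reads fell on the 64 loci, against 4.71% to 6.13% in the 6L control, and the part of this in MIR390b's values was not tested. Against the 6L control the 1S 1D, 3S 3D and 5L 1D plants were higher (0.96, 0.87 and 1.698, FDR 9.22e-05, 0.0126 and 3.01e-09), and 5L 3D gave 0.32 (FDR 0.231). Against the shared control the 6L 1D plants were lower (-0.56, FDR 0.00448). With the 2 control groups joined none of the 8 comparisons was called (edgeR FDR 0.134 to 0.973). The log2 difference of 2.08 between the controls then enters the spread of the joined group. The loss of calls therefore decides nothing about the 8 comparisons.

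**Figure D3:**
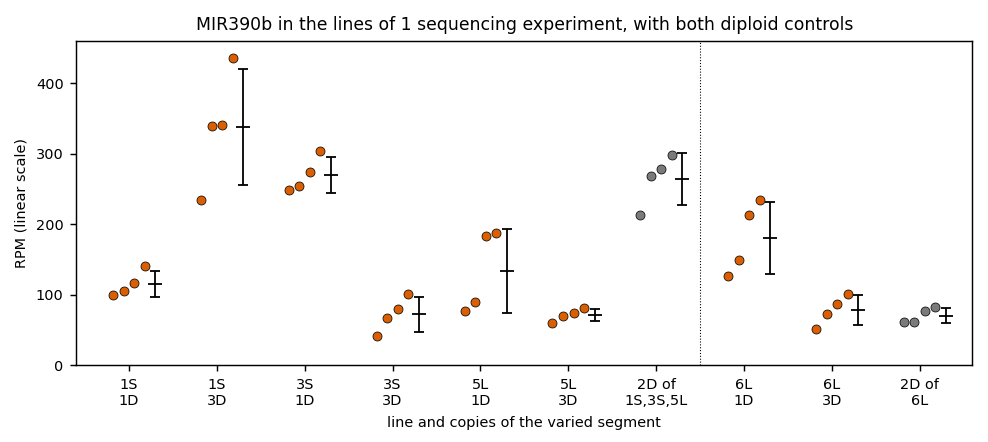
MIR390b in RPM (linear scale from 0) in each plant of the 1S, 3S, 5L and 6L lines, with the mean and SD beside the points and the diploid controls in grey. The control on the left of the dotted line (213 to 299 RPM) lies above the 6L control on the right (61.4 to 83.4 RPM).

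Monosomic and trisomic plants can be compared with no control. The 3D plants exceeded the 1D plants in 1S (log2 fold change 1.01, SE 0.27, FDR 0.00378). They were lower in 3S (-1.46, SE 0.22, FDR 2.00e-05), in 5L (-1.12, SE 0.30, FDR 0.0149) and in 6L (-0.80, SE 0.18, FDR 1.77e-04). None of the other 10 lines was called, and over all lines 18.2% of locus tests were called. The 9L value of 0.48 was called without 9Lc5 (0.56, FDR 0.0468). The 5L call was lost without 5Lb1, 5Lb27 or 5Lb28 (log2 fold change -0.89 to -1.05, FDR 0.0526 to 0.0693).

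Outside that experiment, MIR390b was called in 2 diploid lines with distal segments besides 6S. The 1L 3D plants had 123, 151 and 192 RPM, against 69.5, 75.3 and 82.4 RPM in 1L 2D, with no overlap (log2 fold change 1.06, SE 0.29, FDR 0.0210, 11.6% of loci called). Without 1La41 it was 0.70 (FDR 0.149), and without 1La45 it was 1.09 (FDR 0.0763). The 1L 1D plants spread from 44.4 to 163 RPM around the same control and were not called (0.37, SE 0.45).

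The 10L 1D plants had 133, 140, 159 and 160 RPM, against 66.3, 67.8, 112 and 115 RPM in 10L 2D, with no overlap (log2 fold change 0.70, SE 0.23, FDR 0.0294, 25.6% called). The call did not hold without any of 7 of the 8 plants (FDR 0.0503 to 0.205). The median of all loci in that comparison was 0.44. At 4 copies the 10L plants had 28.4, 35.4, 49.1 and 100 RPM and were not called (-1.02, SE 0.43, FDR 0.215), although without 10L13 the value was -1.57 (FDR 0.00484). Over 10L 3D the 4D value was -0.90 (FDR 0.244), and -1.79, -1.07 and -1.20 without 10L13, 10L26 or 10L59 (FDR 0.0170, 0.0379 and 0.00282).

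In 6S the level was low in all groups. The 4D plants had 42.9, 73.8, 86.4 and 128 RPM, against 40.4, 48.8 and 49.2 RPM in 2D, and these ranges overlapped. The log2 fold change was 0.87 (SE 0.21, FDR 0.00252), the sole call among the loci (2.5%). With mapped reads the FDR was 0.429, the call was lost with 6SA21, 6SA22 and 6SA24 joined as 1 control (0.83, FDR 0.269), and it was also lost without 6SA21 (0.68), 6SA23 (0.75) or 6SA61 (0.44). The 3D plants had 40.5, 71.6, 74.1 and 75.6 RPM (0.65, SE 0.21, FDR 0.0527), a call without 6SA33 (0.74) or without the joined controls 6SA22 and 6SA24 (0.90).

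The other diploid lines gave no call. MIR390b averaged 135 ± 24.9 RPM in 3L 1D and 157 ± 47.4 RPM in 3L 3D, against 152 ± 66.8 RPM in 3L 2D. It averaged 90.9 ± 28.03 RPM in 4S 1D and 90.1 ± 63.4 RPM in 4S 3D, against 132 ± 24.7 RPM in 4S 2D. The 4S 1D plants (49.97 to 113 RPM) lay below all their controls (116 to 168.1 RPM), yet the TMM log2 fold change was -0.03 (SE 0.33), and with mapped reads -0.53. In 4L the means were 105 ± 47.04 RPM in 1D and 100.1 ± 27.96 RPM in 3D, against 120.1 ± 64.6 RPM in 2D.

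In 7L they were 186 ± 28.2 RPM in 1D and 167 ± 44.2 RPM in 3D, against 144 ± 21.4 RPM in 2D. In 8L they were 174 ± 40.8 RPM in 1D and 144 ± 39.8 RPM in 3D, against 171 ± 28.3 RPM in 2D. In 9S they were 106.05 ± 22.5 RPM in 1D and 100.96 ± 19.2 RPM in 3D, against 94.9 ± 11.1 RPM in 2D. In 9L the 1D plants averaged 123 ± 14.4 RPM and the 3D plants 144 ± 26.7 RPM, against 166 ± 56.1 RPM in 2D. The 9L 1D comparison came close to the threshold (-0.57, SE 0.21, FDR 0.0524) and passed it without 9Lc15, 9Lc21 or 9Lc34 (-0.61 to -0.72).

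Among trans disomies MIR390b was called in 7S. The 7S h2D plants had 108, 119, 149 and 273 RPM, against 68.7, 73.3 and 80.7 RPM in h1D plants, with no overlap. The log2 fold change was 0.94 (SE 0.21, FDR 1.92e-04, 20.0% of loci called), and without control Hh58 it was 0.91 (FDR 0.0691). In 11 of the 17 disomies the mean RPM was above that of the haploids, with ratios of 0.469 to 2.69.

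The 1S, 2S and 6L disomies were not called although their groups did not overlap in RPM. The 1S h2D plants had 122, 146, 146, 172, 180 and 189 RPM, against 84.0, 94.4, 101.1 and 101.8 RPM in h1D plants. The TMM log2 fold change was 0.31 (SE 0.15, FDR 0.144) and with mapped reads 0.74 (FDR 7.03e-04). The median of all loci shifted by 0.44 between these scales. With only the disomic plants of the pool that held the controls the TMM value was 0.23 (FDR 0.245), and without plant 1Sbh168 it was 0.38 (FDR 0.0271).

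The 2S h2D plants had 57.2, 59.5, 91.5 and 104 RPM, against 104, 119, 126 and 144 RPM in h1D plants (-0.39, SE 0.22, FDR 0.203), with mapped reads -0.65 (FDR 0.0106) and without plant 2Sah9 -0.59 (FDR 0.00849). The 6L h2D plants had 41.9, 53.7 and 65.6 RPM, against 74.7, 114 and 155 RPM in h1D plants (-0.86, SE 0.31, FDR 0.0659), with mapped reads -1.09 (FDR 0.0322), and without 6Lch29 or control Hh66 -1.32 and -1.40 (FDR 0.0312 and 0.00941). The 1L groups did overlap, since the h2D plants had 72.2, 140, 153 and 163 RPM, against 60.8, 69.0, 75.9 and 79.6 RPM in h1D plants. There the TMM value was 0.23 (SE 0.22) and that with mapped reads 0.89 (FDR 0.00108), with a shift of 0.65 in the median of all loci.

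The remaining disomies were not called on either scale. The h2D plants averaged 117 ± 2.88 RPM in 2S_deletion (123 ± 16.6 RPM in h1D), and 112 ± 25.7 RPM in 3S and 58.5 ± 23.5 RPM in 4L (115 ± 40.2 RPM in their shared h1D group). They averaged 130 ± 58.4 RPM in 3L (74.2 ± 6.04 RPM in h1D), where plants of the control's pool alone gave a log2 fold change of -0.18 in place of 0.60. They averaged 79.1 ± 22.99 RPM in 4S and 109 ± 26.99 RPM in 9S (101.6 ± 20.6 RPM in h1D). The 5L and 8L disomies averaged 96.0 ± 51.3 and 100.5 ± 31.7 RPM (71.3 ± 8.27 RPM in h1D), and the 5L value was called without plant 5Lbh9 (log2 fold change 0.91, FDR 0.0119). The 7L, 9L and 10L disomies averaged 110.0 ± 31.3, 120.1 ± 82.8 and 115 ± 32.5 RPM (91.7 ± 29.6 RPM in h1D).

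Counted by plants and without a test, the groups did not overlap in 5 of 14 monosomies, 3 of 15 trisomies and 5 of 17 disomies. Over all loci tested the shares were 19%, 13.2% and 24%.

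Changes of whole genome sets gave no call for MIR390b. The 1X plants had 43.4, 68.1, 101.2 and 134 RPM, against 89.3, 90.2, 101.5 and 121 RPM in their 2X plants (log2 fold change -0.07, SE 0.31, FDR 0.918). The 3X plants had 161 and 162 RPM, against 140, 168.8 and 176 RPM in 2X plants (-0.27, SE 0.12, FDR 0.852). The 4X plants had 29.4, 31.1, 66.9 and 95.9 RPM, against 45.5, 50.01, 56.7 and 63.4 RPM in 2X plants (0.26, SE 0.46, FDR 0.783). All 3 overlapped their diploids, and the difference between the 4X and 3X effects was 0.55 (SE 0.57, FDR 1.00). Scaling to mapped reads gave -0.21 for 1X, -0.0016 for 3X, 0.059 for 4X and 0.063 for the difference between 4X and 3X, none of them called. Across loci 0.0% were called in each of these 4 tests. The 95% intervals for MIR390b were -0.72 to 0.57 in 1X, -0.56 to 0.02 in 3X and -0.71 to 1.22 in 4X.

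The Dp4 plants had 85.4, 178, 212 and 256 RPM at 2 copies, 183, 186 and 257 RPM at 3 copies and 175 and 276 RPM at 4 copies. The log2 fold changes were 0.28 (SE 0.33) for 3D and 0.34 (SE 0.47) for 4D, and 0.758% of locus tests were called in Dp4. The 1B plants had 22.3, 56.5 and 93.4 RPM, against 41.2, 45.2, 76.7 and 78.4 RPM in 0B plants (-0.37, SE 0.34, FDR 0.842, 2.33% of loci called).

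**Figure D4:**
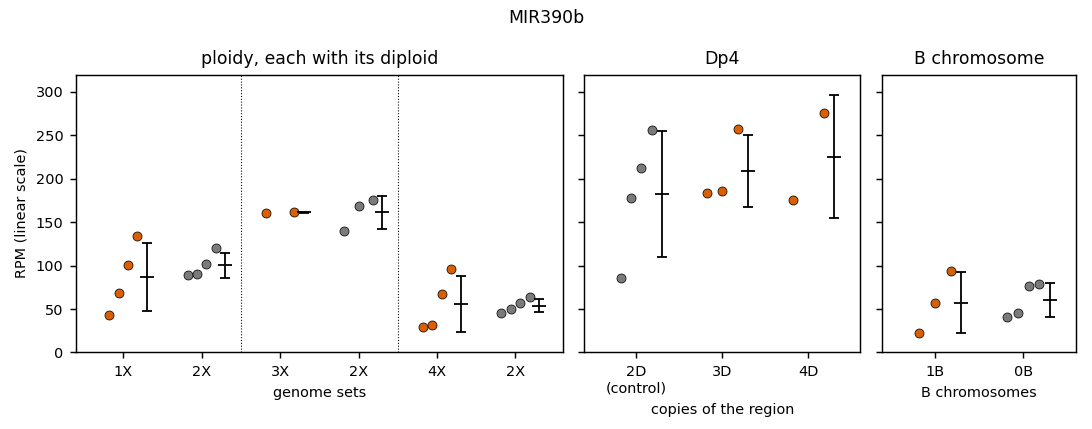
MIR390b in RPM (linear scale from 0) in each sample of the ploidy series, Dp4 and the B chromosome comparison, with mean and SD beside the points and controls in grey. Each coloured group overlaps its own control, and the 3 groups of 2X plants range from 45.5 to 176 RPM.

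Whether the lines differed was tested directly. Equal effects of all lines were rejected for MIR390b in 1D/2D (FDR 1.66e-04), in 3D/2D (FDR 0.00286) and in h2D/h1D (FDR 7.90e-04). The same test was passed by 57.4%, 44.4% and 83.0% of all loci. An effect here is a group against its own control, so differences between controls enter it.

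Control groups with no varied segment also differed from each other. Their means ran from 46.2 to 265 RPM over 26 groups. Within a sequencing experiment or pool, MIR390b was called in 6 of 22 pairs of controls, against 7.23% of all locus tests. Besides the pair described above, these were 1L 2D against Dp4 2D (log2 difference -0.87, FDR 0.0475), 8L 2D against 9S 2D (0.62, FDR 0.00801), 9S 2D against 9L 2D (-0.72, FDR 0.0126), and the diploids of the haploid series against those of the tetraploid series (1.33, FDR 0.00157). The sixth, between the haploids of 1L, 5L and 8L and those of 4S and 9S (-0.47, FDR 0.0215), was not called with mapped reads.

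Loci with the most similar pattern were sought over the 81 group means of log2(RPM + 1), which share libraries and controls. The highest Spearman rho with MIR390b was that of MIR171m (0.61, Pearson r 0.58), followed by MIR396f (0.59, r 0.56), of a family that silences growth-regulating factors, and MIR171j (0.59, r 0.56). The lowest were MIR160g (-0.19, r -0.25), which silences auxin response factors, and Cluster_170541 (-0.17, r -0.19). Over the 55 groups with at least a diploid genome MIR171m had a rho of 0.66, and over the 26 haploid and disomic groups 0.61.

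MIRNAs with targets in auxin signalling (MIR160g, MIR167a, MIR167c, MIR167h and MIR393b) were followed in the 10 comparisons in which MIR390b was called. Of 43 values, 6 were higher and 5 lower, which is 25.6% against 18.5% of the loci outside the list in those comparisons. In the 50 comparisons in which MIR390b was not called, the shares were 13.5% of 223 values and 7.53% outside the list, and neither pair of shares was tested. MIR167c accounted for 6 of these calls, being higher in 1S 1D, 5S h2D, 6L 1D and 7S h2D and lower in 3S 3D and 5L 3D. In 1S 1D it had 194 RPM, against 52.2 RPM in 2D (log2 fold change 1.77, SE 0.24, FDR 1.31e-04), while MIR390b was lower there. In 6L 1D it had 41.2 RPM, against 18.6 RPM in 2D (1.06, SE 0.28), with MIR390b also higher. MIR393b, which silences auxin receptors, was called in 7S h2D alone among these comparisons (22.2 RPM, against 9.93 RPM in h1D). Outside them, MIR167c was also called higher in 1B than in 0B plants. The paper left MIR167c and MIR167h out of its further study, because both differed between plants with and without a B chromosome.

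The 5 MIR166 loci of the leaf polarity pathway gave 7 higher and 3 lower calls among 50 values, 20.0% against 19.2% outside the list. Where MIR390b was not called, the shares were 3.6% of 250 values and 8.73%. MIR166f in 5L 1D was called higher at 0.05, with 19664 RPM, against 22273 RPM in 2D, so its sign depends on scaling. MIR166k accounted for 6 of them, being higher in 1L 3D, 6L 1D, 7S h2D and 10L 1D and lower in 1S 1D and 5L 3D. In 1S 1D it had 186 RPM, against 339 RPM in 2D (-0.99, SE 0.17, FDR 3.82e-04), and in 6L 1D 357 RPM, against 194 RPM in 2D (0.80, SE 0.16, FDR 2.79e-04). MIR166k shares its mature sequence with MIR166j, so the split of reads between them is uncertain. These comparisons share the controls named above, and their calls are not separate evidence.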

How the data were processed

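Small RNA libraries of 322 plants were deposited as raw counts per locus and as RPM. The authors trimmed reads with cutadapt 1.16 and aligned them to W22v2 with ShortStack. The deposited counts were used unchanged, and the deposited RPM values scale each count to mapped reads, since counts divided by RPM gave a constant per library (largest relative spread 1.85e-09). Names, positions, mature sequences and sequencing experiments came from the study's supplementary tables. Groups came from the sample labels.

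The 3 libraries set aside by the study, and Dp4_6, whose label and table give different dosages, were left out. In 7 pairs, plants were not shown to differ beyond sampling noise (chi-square test, p over 0.05, on loci holding 10 counts or more). Pairs were summed as 1 sample from the highest p down, each plant once, which joined 6 and left 6SA21 apart from 6SA22. edgeR 4.0.16 in R 4.3.3 was run on the counts, with the sum over the 64 loci as library size, TMM, a mean RPM of at least 0.5 and Benjamini-Hochberg adjustment within each comparison. Scripts were tested on simulated data, where loci with few counts were often missed. Alternatives were mapped reads as library size, DESeq2 1.42.0, other filters, an exact permutation test, other controls and leaving out each plant. Other loci were named from 3 fixed lists, and the 3 most and 2 least similar by rho. MIR390b and the lists were chosen with earlier results of these data known. RefSeq gave neighbouring genes.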

Additional observations from a re-analysis of the deposited data

Results flagged for a closer look

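In 2 of 64 groups of 4 to 10 samples a plant lay far from the others, where chance flags about 1 in 20 groups: 6SA29 of 6S 3D had 40.5 RPM, below the other plants, and 9Sd39 of 9S 1D had 139 RPM, above them. Effects on MIR390b differed between lines, by edgeR tests of the difference, in 1D/2D (adjusted p 1.66e-04), in 3D/2D (adjusted p 0.00286) and in h2D/h1D (adjusted p 7.90e-04). Of all loci, 57.4%, 44.4% and 83.0% passed the same tests. Each effect was taken against the line's own control, so differences between controls enter these tests. The 5S effect differed from the mean of the other lines in h2D/h1D (adjusted p 0.0325).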

How the results depend on the processing

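Leaving out each plant in turn gave 574 values, of which 20 lost a call, 16 gained one and 0 reversed. Reversed means a change of sign where either value was called. Another 51 changed sign with no call in either. The other alternatives gave 469 values, of which 20 lost a call, 21 gained one and 7 reversed, and 32 changed sign with no call in either. TMM and mapped reads moved the median of all loci apart by -0.59 (3S 3D/2D) to 0.65 (1L h2D/h1D). No paired analysis was possible because plant numbers in the labels only name plants and mark no shared origin. The test on permuted plants was too small for a call in 5 comparisons. The joined controls, of both kinds, were chosen after seeing the data. Low counts, from 25 in a library, limit precision, and the causes of the changes were not tested.

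Mapped reads gave calls in 1S, 1L, 2S and 6L h2D/h1D (0.74, 0.89, -0.65, -1.09), 10L 4D/2D (-0.76), the 5S slope (0.56) and the 7L against 9S controls (0.60), and lost 6S 4D/2D (0.84) and the haploid controls of 1L, 5L, 8L against 4S, 9S (-0.51), with 6 disomies called. With no filter, calls were gained in 6L h2D/h1D (-1.15), 9L 1D/2D (-0.53), 10L 4D/2D (-0.94) and 10L 4D/3D (-1.13). A minimum of 1 RPM gained calls in 6L h2D/h1D (-1.04) and 9L 1D/2D (-0.59) and lost that of 7S h2D/h1D (1.06). The 6S 4D/2D call was lost with the joined pairs kept apart (0.70) and with 6SA21, 6SA22 and 6SA24 joined (0.83). DESeq2 lost the calls of 5L 1D/2D (-0.54), 6S 4D/2D (0.84) and 10L 1D/2D (0.32), which left 2 monosomies called. It gained 6L h2D/h1D (-0.97). The exact permutation test, unadjusted, gained 1S and 2S h2D/h1D (0.72 and -0.69) and 4S 1D/2D (-0.58). It lost 6S 4D/2D (0.73) and 7S h2D/h1D (1.02). All groups of a line in 1 fit lost 1L 3D/2D (0.97), 5L 1D/2D (-0.76), 6S 4D/2D (0.84) and 10L 1D/2D (0.57). That fit gained 10L 4D/3D (-0.99), and 2 monosomies were called. Adjustment over all comparisons together lost 5L 1D/2D (-0.75) and 10L 1D/2D (0.70) and gained 6S 3D/2D (0.65), with 2 monosomies called. The 6L control gave calls in 1S (0.96 at 1D, 1.78 at 3D), 3S (1.85 and 0.87) and 5L 1D (1.698). It gave no call in 5L 3D (0.32). The shared control gave calls in 6L (-0.56 at 1D, -1.04 at 3D). With the joined controls, calls were lost in 1S 1D (-0.48), 3S 3D (-0.56), 5L 1D (0.10), 5L 3D (-0.94) and 6L 1D (0.020). That left 1 monosomy and 1 trisomy called.

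Without single plants the ranges were 0.52 to 0.78 in 10L 1D/2D, -1.57 to -0.58 in 10L 4D/2D, -1.79 to -0.56 in 10L 4D/3D, 0.70 to 1.18 in 1L 3D/2D, 0.23 to 0.38 in 1S h2D/h1D, -0.59 to -0.25 in 2S h2D/h1D, -0.98 to -0.57 in 5L 1D/2D, 0.34 to 0.91 in 5L h2D/h1D, 0.97 to 1.22 in 5S h2D/h1D, -1.40 to -0.73 in 6L h2D/h1D, 0.45 to 0.90 in 6S 3D/2D, 0.44 to 1.12 in 6S 4D/2D, 0.68 to 1.17 in 7S h2D/h1D and -0.72 to -0.36 in 9L 1D/2D. For 3D against 1D they were -1.30 to -0.89 in 5L, 0.50 to 1.51 in 5S and 0.20 to 0.58 in 9L. The 5S slope ranged over 0.075 to 0.46.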
